A study of Homo sapiens with 8 samples.

Results

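The kinetochore and spindle checkpoint genes described here are 39 genes that encode the protein platform built on each centromere and the checkpoint that watches it. They were chosen by name from the 34809 gene names of the array, and all 39 were measured well above background on all 8 arrays. The cells were HuCCT1, an established human intrahepatic cholangiocarcinoma line, carrying 1 of 4 retroviral short hairpin RNA vectors. shControl and shNontarget were the control vectors, shBEX2-1 and shBEX2-2 were aimed at BEX2, and each vector was measured on 2 one-colour Agilent arrays. The methods mention a hairpin against luciferase as control, and which control vector that is was not given in the sources used here. Each vector stands for 1 subline, the target sequences of the BEX2 hairpins overlap, and separate cultures for its arrays are not stated, so that p-values measure only the spread between arrays, which may be technical.

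A kinetochore has layers. CENP-A, a histone H3 variant, marks the centromere and is loaded by its chaperone HJURP, and the constitutive centromere-associated network (CCAN) binds this chromatin through the cell cycle. In mitosis the KMN network (KNL1, the MIS12 complex and the NDC80 complex) joins the CCAN to spindle microtubules, and the SKA complex helps to hold their growing and shrinking ends. Kinetochores without microtubules recruit the kinases MPS1 and BUB1 with the MAD1, MAD2 and BUBR1 proteins, which delay anaphase by holding CDC20. Many of these genes are transcribed mainly in G2 and M phase, when activating complexes at the CHR element, often together with CCAAT boxes, replace a repressor complex, whereas others are transcribed at all phases. By this background knowledge 26 of the genes were listed as periodic and 8 as constitutive (CENPB, CENPT, MIS12, PMF1, NSL1, SKA2, BUB3 and MAD1L1), and 5 were not assigned (CENPO, CENPP, CENPQ, ITGB3BP and ZWILCH). In bulk RNA, more cells in a phase and more RNA per cell cannot be told apart.

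Promoter windows were compared between the classes, which were assigned with earlier results of these data known. RefSeq promoter windows on GRCh38.p14, from 250 bases before to 50 bases after the start, were found for 32 of the 39 genes, and for genes with several starts the one listed first was used. The CHR letters TTTGAA or TTCGAA, on either strand, occurred in the windows of 14 of 20 periodic genes, of 0 of 7 constitutive genes and of 1 of 5 not assigned, against 16.4% of all 35116 windows. CCAAT, on either strand, was present in 13 of the 20 periodic and 3 of the 7 constitutive windows, against 34.6% of all windows. The letters GCGGGAA, a core of E2F sites, were found on either strand in 4 of the 20 periodic and 2 of the 7 constitutive windows, against 6.55% of all windows. These are matches of short letters and not sites of binding. The 150 bases before the start are printed for the 6 periodic genes with the largest fold change among those with a window and for the 2 constitutive genes with the fold change nearest to 0, with matches to the 3 motifs in capitals. Matches may overlap each other, and those that lie farther upstream or reach past the start are not in this stretch.
SPC24, chr19:11155783-11155932, minus strand: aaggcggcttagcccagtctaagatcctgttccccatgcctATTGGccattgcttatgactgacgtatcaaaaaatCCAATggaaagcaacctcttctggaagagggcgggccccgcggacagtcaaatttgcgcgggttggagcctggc
SPC25, chr2:168890431-168890580, minus strand: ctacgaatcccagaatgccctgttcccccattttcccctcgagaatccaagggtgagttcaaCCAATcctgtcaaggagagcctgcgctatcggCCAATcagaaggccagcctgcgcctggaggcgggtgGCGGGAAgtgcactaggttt
SGOL1, chr3:20186207-20186356, minus strand: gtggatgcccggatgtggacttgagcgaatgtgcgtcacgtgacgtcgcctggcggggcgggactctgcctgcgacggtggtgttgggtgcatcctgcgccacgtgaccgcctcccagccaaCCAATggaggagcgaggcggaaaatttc
SGOL2, chr2:200525992-200526141, plus strand: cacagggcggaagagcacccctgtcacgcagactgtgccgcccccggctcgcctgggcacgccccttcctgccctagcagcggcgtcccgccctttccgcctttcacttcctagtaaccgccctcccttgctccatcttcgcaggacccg
ERCC6L, chrX:72239028-72239177, minus strand: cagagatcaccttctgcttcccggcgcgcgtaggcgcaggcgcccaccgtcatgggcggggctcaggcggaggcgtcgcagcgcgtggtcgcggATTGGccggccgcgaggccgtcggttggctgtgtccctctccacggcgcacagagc
ZWINT, chr10:56361260-56361409, minus strand: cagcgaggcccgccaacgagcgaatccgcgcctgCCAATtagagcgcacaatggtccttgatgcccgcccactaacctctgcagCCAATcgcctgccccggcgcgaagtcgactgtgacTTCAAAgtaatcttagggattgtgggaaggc
PMF1, chr1:156212857-156213006, plus strand: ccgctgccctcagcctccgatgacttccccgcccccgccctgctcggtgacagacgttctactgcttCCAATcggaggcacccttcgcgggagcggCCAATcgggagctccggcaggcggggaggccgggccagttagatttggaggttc
MAD1L1, chr7:2232946-2233095, minus strand: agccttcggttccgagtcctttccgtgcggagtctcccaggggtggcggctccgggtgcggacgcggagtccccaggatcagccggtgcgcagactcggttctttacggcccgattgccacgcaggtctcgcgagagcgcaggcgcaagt

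ZWINT has the CHR letters as TTCAAA with CCAAT boxes upstream of them, and PMF1 has CCAAT boxes without a CHR match. In SPC25 and SGOL1 a CHR match begins 3 bases before the start and runs past it, so that it is not printed. SPC24 and SGOL2 have no CHR match in the window.

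**Figure D1:**
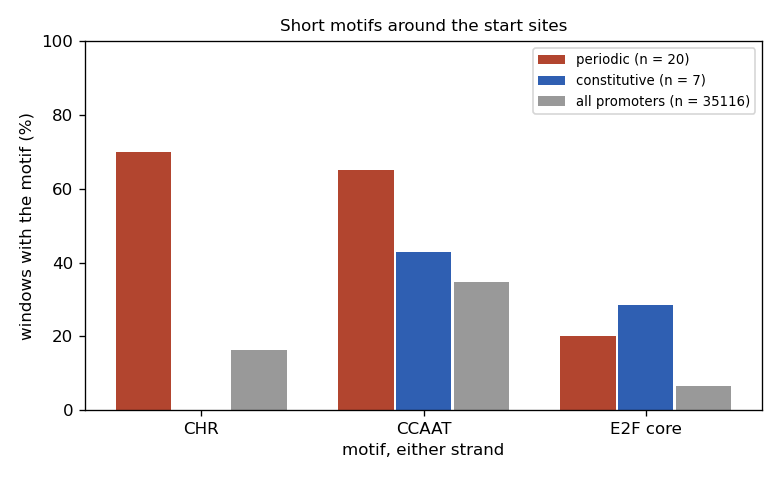
Share of 300-base promoter windows (y axis, percent) that hold each motif (x axis, either strand) among 20 periodic genes, 7 constitutive genes and all 35116 windows. The CHR bar stands at 70.0% for periodic genes, at 0 for constitutive genes and at 16.4% for all windows.

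BEX2 itself was lower in the knockdown arrays as a whole. On a log2 scale relative to the 75th percentile of each array, its values were -3.36 and -3.91 with shControl, -2.70 and -3.77 with shNontarget, -5.21 and -5.54 with shBEX2-1, and -4.92 and -4.60 with shBEX2-2. The ranges of control and knockdown arrays did not overlap, and the log2 fold change of knockdown against control was -1.63 (SE 0.32, limma adjusted p = 0.0116). By vector, the log2 fold change against both controls was -1.94 with shBEX2-1 (adjusted p = 0.0335) and -1.32 with shBEX2-2, where it was not called (adjusted p = 0.0812). With shBEX2-1 the probe was not well above background on either array. The 3.83-fold lower level there is therefore a point estimate from readings near background. The non-control spots well above background made up between 59.8% and 64.6% of each of the 8 arrays and no spot was saturated. Precision is limited by having 2 arrays per vector. All arrays lie on 1 slide, the control arrays in one row and the knockdown arrays in the other, so position and group cannot be told apart. The shNontarget arrays stood apart from the other replicate pairs, since 34.9% of all genes were over 1 apart on the log2 scale between them, against 0.557% to 1.76% for the other vectors. The biliary epithelial markers KRT7 and KRT19 were among the brightest probes, with intensities from 178180 to 275839 and from 135642 to 249348. The dimmest of the 7 biliary markers was SOX9, with intensities from 190 to 479. Its log2 fold change of -0.38 was not called (limma adjusted p = 0.0842), though its knockdown arrays all lay below the control arrays. Of 11 markers of hepatocytes, leukocytes, fibroblasts and endothelium, COL1A1, CDH5 and CD14 were well above background on all 8 arrays, PTPRC on 7, APOA1 on 6, CD3E on 3, TF and PDGFRB on 1, and ALB, COL3A1 and PECAM1 on 0. The brightest were COL1A1, with intensities from 121 to 461, and CD14, from 207 to 332. The levels of the 11 summed to between 0.694 and 1.36 times the 75th percentile of the array on control arrays and to between 1.01 and 1.09 times on knockdown arrays. Of the 7 biliary markers 1 rose, KRT8, by 1.02 on the log2 scale, and of the 5 others that passed the filter on dim probes 1 rose, CD14, by 0.54. The part of these markers in the results was not tested.

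The main comparison asked how the genes differ between BEX2 knockdown and control cells. Of the 39 genes, 28 rose in the knockdown cells and 0 fell at a limma adjusted p under 0.05 over 20450 genes, where 6.68% of all genes rose and 6.27% fell. Their median log2 fold change was 1.33, from -0.12 to 2.03, beside a median of 0.027 over all genes tested. In 27 genes all 4 knockdown arrays lay above all 4 control arrays and in 0 genes all lay below, against 11.4% and 10.7% of all genes. The genes called were 24 of the 26 periodic genes (median 1.42), 0 of the 8 constitutive genes (median 0.107) and 4 of the 5 not assigned (median 1.10). The classes were assigned with earlier results of these data known, so this split is not independent of those results. At an unadjusted p under 0.05, 30 of the 39 genes were higher and 0 lower, among them 1 constitutive gene, SKA2, where 14.4% of all genes were higher and 13.4% lower. Student's t-test, which the methods name for experimental groups, with a rank product for the arrays, called 22 genes higher and 0 lower. Its p-values were adjusted here over all genes at the same threshold, and 5.36% of all genes were called higher. The count moved with the control arrays used: with the shControl arrays alone 32 genes rose and with the shNontarget arrays alone 8, where 17.2% and 0.949% of all genes rose. The 8 were CENPI, CENPK, CENPM, CASC5, ZWINT, BUB1B, SGOL1 and SGOL2.

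**Figure D2:**
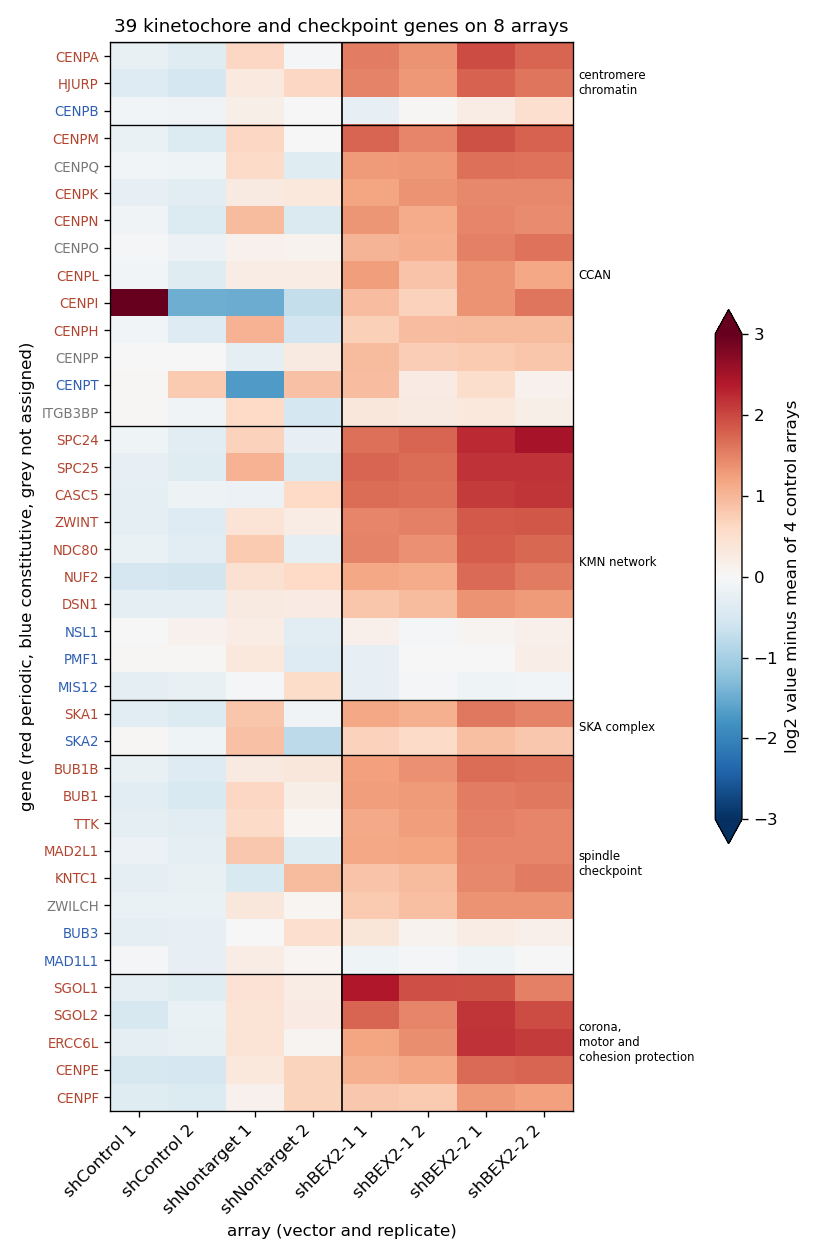
Log2 value minus the mean of the 4 control arrays (colour) for the 39 genes (rows, grouped by role, names red for periodic, blue for constitutive, grey for not assigned) on the 8 arrays (columns, a line parting control from knockdown). The medians of the 39 genes lie between 1.11 and 1.49 on the knockdown arrays and between -0.30 and 0.33 on the control arrays, and the single dark red cell among the control arrays is CENPI on shControl replicate 1.

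Of the centromere chromatin genes, CENPA and HJURP rose and CENPB, whose protein binds alpha satellite DNA, was not called. CENPA read -1.29 and -1.43 with shControl, -0.45 and -1.11 with shNontarget, 0.46 and 0.28 with shBEX2-1, and 0.88 and 0.68 with shBEX2-2. All knockdown arrays lay above all control arrays, with a log2 fold change of 1.64 (SE 0.23, adjusted p = 0.0030). CENPB read 0.16 and 0.14 with shControl, 0.41 and 0.24 with shNontarget, -0.0041 and 0.27 with shBEX2-1, and 0.47 and 0.73 with shBEX2-2. Its ranges overlapped, and the log2 fold change was 0.13 (adjusted p = 0.677, 95% interval -0.25 to 0.50). HJURP, the chaperone, had a log2 fold change of 1.53 (SE 0.26), with knockdown arrays from 3.21 to 3.68 and control arrays from 1.37 to 2.54.

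Of 11 CCAN genes, 7 rose (CENPM, CENPQ, CENPK, CENPN, CENPO, CENPL and CENPP), with log2 fold changes from 0.82 for CENPP to 1.72 for CENPM. CENPM, a subunit of the CENP-H/I/K/M complex, read 2.31 and 2.11 with shControl, 3.14 and 2.52 with shNontarget, 4.27 and 3.97 with shBEX2-1, and 4.43 and 4.29 with shBEX2-2. Every knockdown array was above every control array (1.72, SE 0.22, adjusted p = 0.00225). ITGB3BP, which encodes CENP-R of the CENP-O/P/Q/R/U complex, read -0.06 and -0.18 with shControl, 0.52 and -0.62 with shNontarget, 0.25 and 0.18 with shBEX2-1, and 0.23 and 0.09 with shBEX2-2. All of its knockdown arrays lay within the range of the control arrays, and its log2 fold change was the smallest of the CCAN at 0.27 (adjusted p = 0.464, interval -0.22 to 0.76). Its complex partners CENPO, CENPP and CENPQ rose by 1.31, 0.82 and 1.46 on the log2 scale.

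The other CCAN genes not called were CENPH, CENPI and CENPT. CENPH read -0.89 and -1.19 with shControl, 0.23 and -1.37 with shNontarget, -0.09 and 0.11 with shBEX2-1, and 0.13 and 0.15 with shBEX2-2. The high value of shNontarget replicate 1 lay above all knockdown arrays, and the log2 fold change was 0.88 (SE 0.31, adjusted p = 0.0997). It was called at 1.23 without that array (limma adjusted p = 0.000848) and at 1.12 against shControl alone (adjusted p = 0.000667). It was not called at 0.69 without shNontarget replicate 2 (adjusted p = 0.144) or at 0.65 against shNontarget alone (adjusted p = 0.453). The CENPH probe is printed 10 times on each array. These copies spread by an SD of 0.055 to 0.089 within an array, against a gap of 1.60 between the shNontarget arrays. CENPT, which recruits the NDC80 complex, read -3.24 and -2.49 with shControl, -4.97 and -2.40 with shNontarget, -2.35 and -3.03 with shBEX2-1, and -2.76 and -3.14 with shBEX2-2. Control arrays spanned more than the knockdown arrays did, the log2 fold change of 0.46 had an interval from -0.72 to 1.63 (adjusted p = 0.623), and without shNontarget replicate 1 it was -0.11.

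CENPI, another CENP-H/I/K/M subunit, has 2 probes, and they parted on 1 array. Its brighter probe read 0.36 and -4.77 with shControl, -4.79 and -4.03 with shNontarget, -2.37 and -2.62 with shBEX2-1, and -1.96 and -1.69 with shBEX2-2. The shControl replicate 1 array alone set the control mean, and the log2 fold change of 1.15 (SE 1.02, adjusted p = 0.521) became 2.37 without it. The other probe read -3.87 and -5.00 with shControl, -4.43 and -3.66 with shNontarget, -2.75 and -2.85 with shBEX2-1, and -1.90 and -1.93 with shBEX2-2. Here all knockdown arrays were above all control arrays, with a log2 fold change of 1.89. Of the 22 spots within 2 rows and 2 columns of the brighter CENPI probe, 9 also exceeded the other 3 control arrays by over 4 on the log2 scale on shControl replicate 1, against 0.310% of the spots of that array. The part of these spots in the CENPI value was not tested.

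**Figure D3:**
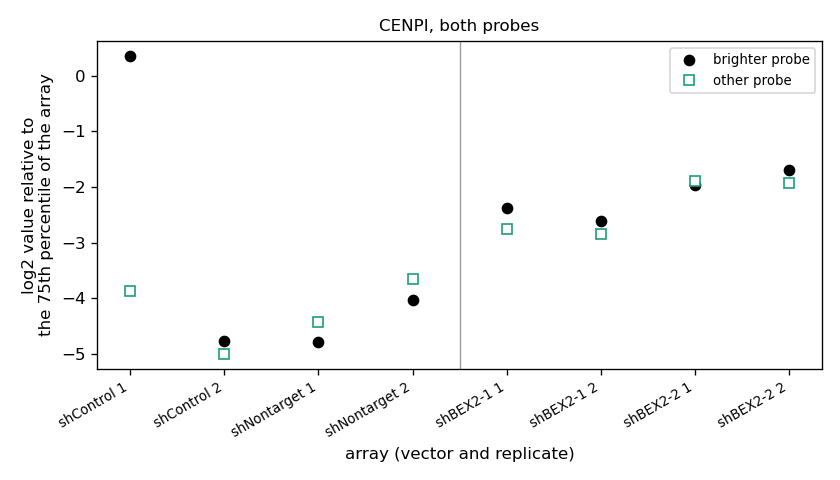
CENPI log2 values relative to the 75th percentile of each array (y axis) on the 8 arrays (x axis) for the brighter probe (filled circles) and the other probe (open squares). The probes read 0.36 and -3.87 on shControl replicate 1 and lie near each other on the other 7 arrays.

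In the KMN network 7 of 10 genes rose: all 4 subunits of the NDC80 complex, CASC5 (KNL1, the scaffold for BUB proteins), ZWINT and DSN1. SPC24, a subunit of the microtubule-binding NDC80 complex, had the largest fold change at this setting and read -4.55 and -4.73 with shControl, -3.73 and -4.68 with shNontarget, -2.77 and -2.67 with shBEX2-1, and -2.18 and -1.95 with shBEX2-2. The knockdown arrays were all above the control arrays, by 2.03 on the log2 scale (SE 0.28, adjusted p = 0.00305). Its probe was dim, with intensities from 31.2 to 31.5 with shControl, from 56.2 down to 26 with shNontarget and from 64.8 to 164 on knockdown arrays. With normexp background correction its log2 fold change was 1.12, below 1.83 for SPC25, 1.74 for CASC5 and 1.62 for CENPM. The other subunits followed with 1.94 for SPC25, 1.60 for NDC80 and 1.38 for NUF2. CASC5 rose by 1.89 (SE 0.22) and ZWINT, its partner, by 1.67 (SE 0.20), and the second probes of these genes gave 1.84 and 1.80.

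Of the 4 subunits of the MIS12 complex 1 was called. DSN1 rose by 1.11 (SE 0.18, adjusted p = 0.0063), with knockdown arrays from 0.72 to 1.22 and control arrays from -0.38 to 0.14. MIS12 read -0.89 and -0.84 with shControl, -0.64 and -0.07 with shNontarget, -0.85 and -0.64 with shBEX2-1, and -0.73 and -0.70 with shBEX2-2. Its knockdown arrays lay within the range of the control arrays, and the log2 fold change was -0.12 (adjusted p = 0.738, interval -0.54 to 0.31). PMF1 and NSL1 gave -0.0086 (interval -0.39 to 0.37) and 0.087 (interval -0.26 to 0.43), with adjusted p = 0.983 and 0.765. The interval of DSN1, from 0.69 to 1.52, lay above those of the other 3 subunits. The difference between subunits was not tested.

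In the SKA complex SKA1 was called and SKA2 was not. SKA1 read -3.06 and -3.13 with shControl, -1.88 and -2.82 with shNontarget, -1.56 and -1.65 with shBEX2-1, and -1.14 and -1.23 with shBEX2-2. It rose by 1.33 (SE 0.28, adjusted p = 0.0154) with no overlap. SKA2 read -0.61 and -0.79 with shControl, 0.23 and -1.45 with shNontarget, 0.05 and -0.08 with shBEX2-1, and 0.24 and 0.15 with shBEX2-2. Its control range enclosed 3 of the 4 knockdown arrays, with the shNontarget arrays 1.68 apart, and its log2 fold change of 0.74 (SE 0.30, interval 0.058 to 1.42) was not called (adjusted p = 0.149). It was called at 1.04 without shNontarget replicate 1 (adjusted p = 0.00758) and at 0.79 against shControl alone (adjusted p = 0.00236). In these fits 12% and 17.2% of all genes rose. Without shNontarget replicate 2 it was 0.48 (limma adjusted p = 0.185) and against shNontarget alone 0.70 (adjusted p = 0.440), not called in either. The interval of SKA1, from 0.70 to 1.96, overlapped that of SKA2, and their difference was not tested. A second SKA2 probe gave 0.82, also with overlapping ranges.

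Among 8 spindle checkpoint genes, 6 rose: BUB1B, BUB1, TTK, MAD2L1, KNTC1 and ZWILCH. BUB1B, which encodes BUBR1 of the mitotic checkpoint complex, read -0.54 and -0.71 with shControl, -0.05 and 0.02 with shNontarget, 0.91 and 1.04 with shBEX2-1, and 1.35 and 1.33 with shBEX2-2. It rose by 1.48 (SE 0.20, adjusted p = 0.0026) with no overlap of the groups. The kinase genes BUB1 and TTK (MPS1) rose by 1.42 and 1.34. BUB3, the partner of BUB1 and BUBR1, read 2.78 and 2.80 with shControl, 3.05 and 3.55 with shNontarget, 3.41 and 3.16 with shBEX2-1, and 3.27 and 3.20 with shBEX2-2. Its shNontarget replicate 2 array was above all knockdown arrays and its log2 fold change was 0.22 (adjusted p = 0.497, interval -0.20 to 0.63). It was called at 0.39 without that array (adjusted p = 0.0444) and at 0.47 against shControl alone (adjusted p = 0.00733). Against shNontarget alone it was -0.040 and without shNontarget replicate 1 it was 0.22 (limma adjusted p = 0.460), not called in either. A second BUB3 probe gave 0.51, with overlapping ranges.

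MAD2L1, which encodes the CDC20-binding MAD2, rose by 1.31 (SE 0.25, adjusted p = 0.0109). MAD1L1, which encodes MAD1, the template for MAD2, read -0.25 and -0.46 with shControl, -0.0040 and -0.16 with shNontarget, -0.35 and -0.29 with shBEX2-1, and -0.34 and -0.24 with shBEX2-2. All knockdown arrays lay within the control range, with a log2 fold change of -0.09 (adjusted p = 0.717, interval -0.38 to 0.20). KNTC1 and ZWILCH, of the RZZ complex that brings MAD1 and dynein to kinetochores, rose by 1.20 and 1.10. KNTC1 (SE 0.31, adjusted p = 0.0362) was the only one of the 28 called genes whose ranges overlapped, since shNontarget replicate 2 read 0.49 while the knockdown arrays began at 0.39, and its 10 spots on that array ranged from 0.42 to 0.53.

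All 5 genes of the corona, of motors and of cohesion protection rose. SGOL1, whose shugoshin product protects centromeric cohesin, read -2.37 and -2.44 with shControl, -1.65 and -1.86 with shNontarget, 0.31 and -0.16 with shBEX2-1, and -0.16 and -0.57 with shBEX2-2. It rose by 1.94 (SE 0.24, adjusted p = 0.00188), and its second probe gave 2.22. SGOL2 rose by 1.83 (SE 0.23) and ERCC6L, the translocase PICH of anaphase bridges, by 1.72 (SE 0.26). CENPE, the kinesin that moves chromosomes to the equator, rose by 1.42 (SE 0.30). CENPF read 3.54 and 3.50 with shControl, 4.04 and 4.57 with shNontarget, 4.73 and 4.69 with shBEX2-1, and 5.21 and 5.15 with shBEX2-2. It had the smallest change of the group, 1.03 (SE 0.26, adjusted p = 0.0306), with a small gap between shNontarget replicate 2 and the knockdown arrays, and its second probe gave 1.55. CENPF lost its call under 10 of the 20 alternative settings, KNTC1 under 9, CENPN under 7, SKA1 under 6 and NUF2 under 5. Over the 11 genes with more than 1 probe, all 13 other probes had a positive log2 fold change and 10 had knockdown arrays all above the control arrays.

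**Figure D4:**
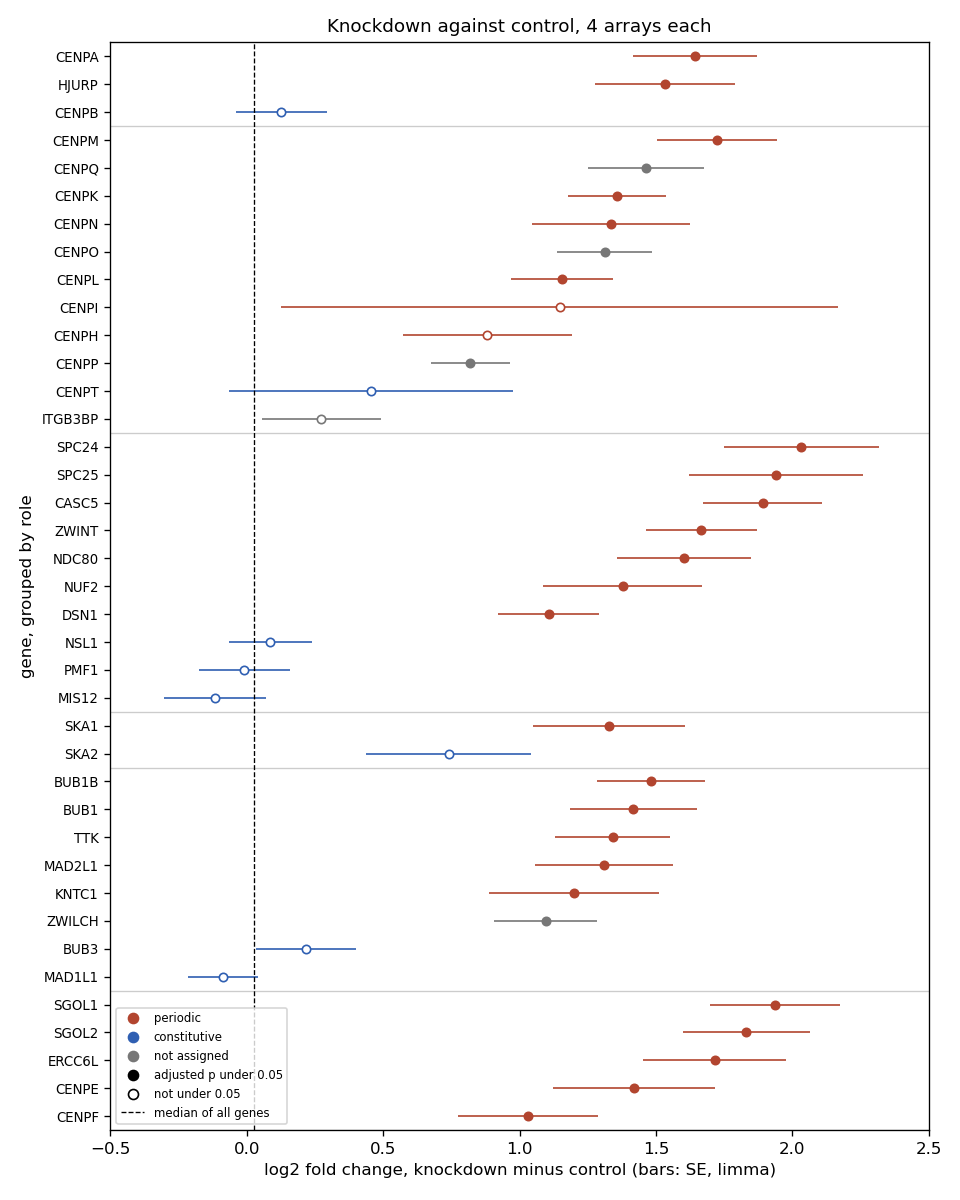
Log2 fold change of knockdown against control (x axis, bars are the limma SE) for the 39 genes (y axis, grouped by role), coloured by class and filled where the adjusted p was under 0.05, with the median of all genes, 0.027, as a dashed line. The periodic genes lie between 0.88 and 2.03 and the constitutive genes between -0.12 and 0.74.

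**Figure D5:**
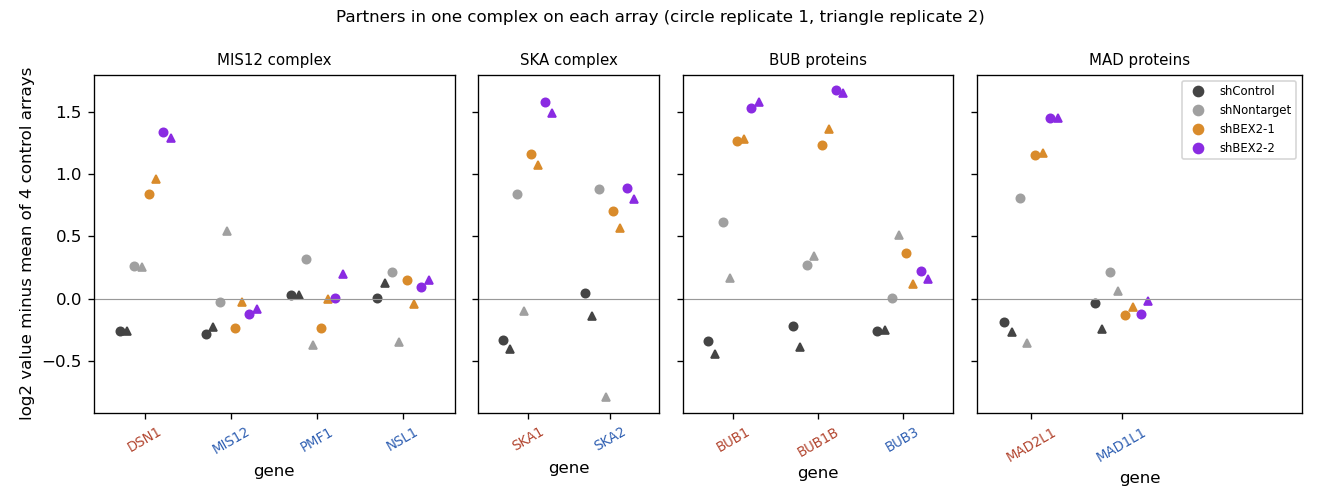
Log2 value minus the mean of the 4 control arrays (y axis) on each of the 8 arrays for genes whose products share a complex (x axis, periodic names red, constitutive names blue), with circles for replicate 1 and triangles for replicate 2. DSN1, SKA1, BUB1, BUB1B and MAD2L1 have all knockdown arrays above all control arrays, and MIS12, PMF1, NSL1, SKA2, BUB3 and MAD1L1 do not.

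Most of the genes were higher in both sublines than in the control vectors. The log2 fold change was above 0 in 35 of the 39 genes with shBEX2-1 and in 37 with shBEX2-2. Over all genes it was above 0 in 11200 and 10316 of 20450. Of the 8 constitutive genes, 4 were below 0 with shBEX2-1 and 2 with shBEX2-2, and 0 were called in either. Against both control vectors, 21 genes rose with shBEX2-1 and 25 with shBEX2-2, where 3.39% and 4.86% of all genes rose, and 0 fell with either. In fits with a single shNontarget array left, the log2 fold change with shBEX2-1 was -0.27 for MIS12 without replicate 1. It was -0.29 for PMF1 without replicate 2. The comparisons of both sublines share their control arrays. The median log2 fold changes of the 39 genes were 1.12 with shBEX2-1 and 1.49 with shBEX2-2. The counts fell or rose when single arrays were left out, and the shBEX2-1 count also fell without a shBEX2-2 array. Such fits keep a single array of 1 vector, and the calls over all genes fell or rose with the counts. In some of them no call was left, in these genes or over all genes. With the shNontarget arrays alone as control, 8 genes rose with shBEX2-1 and 21 with shBEX2-2, where 1.52% and 3.22% of all genes rose.

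Between the sublines, 0 of the 39 genes were called by limma in either direction, where 0.00978% of all genes were. At an unadjusted p under 0.05, 9 genes were higher with shBEX2-2 and 0 lower, where 3.95% of all genes were higher. The value was higher with shBEX2-2 in 34 of 39 genes, with a median difference of 0.34. Over all genes it was higher in 9107 of 20450, with a median difference of -0.039. ERCC6L differed most, reading -1.54 and -1.33 with shBEX2-1 and -0.56 and -0.63 with shBEX2-2, a difference of 0.84 (adjusted p = 0.228). SGOL1 went the other way, lower by 0.45 with shBEX2-2 (adjusted p = 0.828). Without shNontarget replicate 1 or without replicate 2, 20 genes were called higher with shBEX2-2, where 7.41% and 7.57% of all genes were.

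Between the control vectors, 0 of the 39 genes and 0% of all genes were called by limma. At an unadjusted p under 0.05, 17 genes were higher with shNontarget and 0 lower, where 4.37% of all genes were higher. The shNontarget mean was higher in 34 of 39 genes, with a median difference of 0.50. It was higher in 25 of the 26 periodic genes, with a median of 0.60, the exception being CENPI. Over all genes it was higher in 9989 of 20450, with a median difference of -0.0096. NUF2 showed the largest such difference, 1.06 (adjusted p = 0.273), with -1.29 and -1.34 for shControl and -0.31 and -0.19 for shNontarget. On single arrays, the median of the 39 genes relative to the control mean was 0.33 and 0.071 with shNontarget, replicates 1 and 2. With shControl it was -0.22 and -0.30. Fits without replicate 1 or without replicate 2 of shNontarget keep a single array of that vector. The single shNontarget array left in such fits is assumed to vary like the arrays of the other vectors. The shNontarget arrays were over 1 apart in 9 of the 39 genes, a share of 23.1% against 34.9% of all genes: CENPH, CENPN, ITGB3BP, NDC80, SPC25, SKA2 and MAD2L1 were higher on replicate 1, and CENPT and KNTC1 on replicate 2. The level of the periodic genes was thus ordered shControl, shNontarget, shBEX2-1 and shBEX2-2, with medians relative to the control mean of -0.26 and -0.36, 0.42 and 0.19, 1.25 and 1.29, and 1.69 and 1.59 on the arrays of each vector. With all 8 arrays, neighbours at either end of this order had no called gene between them.

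Other genes of the pathway were described from fixed lists, beside 6.68% of all genes that rose and 6.27% that fell. Of 12 other kinetochore and centromere genes, 8 rose and 1 fell. C6orf173, which encodes CENP-W, the histone-fold partner of CENP-T, rose most, by 1.77 (SE 0.30, adjusted p = 0.0067). CENPV, well above background on 6 arrays, fell by 1.73 (SE 0.45, adjusted p = 0.0359). Its probe was dim, with intensities from 4.56 to 64.9, and this is a point estimate that includes readings near background. Of the 4 genes of the chromosomal passenger complex, which corrects wrong attachments, 3 rose, with INCENP at 1.69 (adjusted p = 0.0046), while the kinase gene AURKB had a log2 fold change of 0.90 and was not called (adjusted p = 0.0612).

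Downstream of the checkpoint, 4 of 18 genes of the anaphase-promoting complex and of anaphase rose and 0 fell. PTTG1, which encodes securin, rose by 1.68 (SE 0.29, adjusted p = 0.0068), and the other 3 were CDC20, ESPL1 (separase) and TRIP13, all of them outside the core complex. The smallest value of the list, -0.33, was that of the core subunit CDC16 (adjusted p = 0.135). Of 9 genes of cohesin and its regulators, 2 rose and 1 fell, where 6.68% of all genes rose and 6.27% fell. CDCA5, which encodes sororin, rose by 1.49 (SE 0.20, adjusted p = 0.0028), and PDS5A, a regulator of cohesin release, fell by 0.52 (adjusted p = 0.0384). The other gene that rose was STAG1.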

How the data were processed

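RNA of HuCCT1 cells was labelled with Cy3 and hybridized to 8 Agilent arrays of 1 design, and the authors read them with Agilent Feature Extraction 10.7.3.1. The deposited intensity of each spot was background-subtracted and detrended within the array and not scaled between arrays, and a deposited series table repeats this intensity, rounded (at most 0.497% apart). Control spots were left out and spots marked as non-uniform (3 to 15 per array) were set to missing. Intensities were taken to log2, the 75th percentile of each array was subtracted, and spots of a probe were averaged. Probes had to be well above background on 4 or more of 8 arrays, and each gene was read from its brightest probe by mean.

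Knockdown and control (4 arrays each) were compared with limma 3.58.1 in R 4.3.3 (lmFit, eBayes with an intensity trend), and calls were made at a p under 0.05 after Benjamini-Hochberg adjustment over 20450 genes. A model with the 4 vectors gave the other comparisons. The functions were tested on simulated data. Python 3.11.15, pandas 2.3.3, numpy 2.4.6 and matplotlib 3.10.9 were used to read files, search motifs and draw figures. The genes, their classes, all lists, motifs and tests were chosen with earlier results of these data known. Every one of the 39 genes is accounted for, with array values for the largest and the smallest fold change of each role and for genes not called, lowest adjusted p first, up to 8 of these, so that PMF1 and NSL1 are given without array values. Of other lists the largest and the smallest are named, and CDC20, ESPL1, TRIP13, STAG1 and the extremes between vectors were chosen after their values were seen. The rank product of the methods was not run. There were 20 alternative settings.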

Additional observations from a re-analysis of the deposited data

Results flagged for a closer look

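Of 78 groups of 4 arrays (39 genes, control and knockdown), 7 had 1 array far from the others by Dixon's ratio, the gap of the extreme array divided by the range of the group. Chance gives about 1 such group in 20. In the control arrays, shNontarget replicate 1 was high for NDC80 (ratio 0.897, 1.48 against 0.40 to 0.51), SPC25 (0.869, 0.76 against -0.73 to -0.53) and MAD2L1 (0.852, 0.30 against -0.87 to -0.70). shNontarget replicate 2 was high for CASC5 (0.883, 0.11 against -0.76 to -0.66) and KNTC1 (0.833, 0.49 against -0.90 to -0.67). shControl replicate 1 was high for CENPI (0.852, 0.36 against -4.79 to -4.03). In the knockdown arrays, shBEX2-1 replicate 1 was low for CENPH (0.835, -0.09 against 0.11 to 0.15). The causes were not tested.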

How the results depend on the processing

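Over 20 alternative settings, the 39 fold changes gave 780 values. Of these, 704 kept direction and side of the threshold, 56 were no longer called, 9 became called and 11 turned sign. Settings that change only the test, such as the replicate block or the fit without an intensity trend, leave the fold change and its direction as they are. The 7 genes called under every setting were CENPK, CENPM, CASC5, ZWINT, BUB1B, SGOL1 and SGOL2. With the shNontarget arrays alone as control, 8 genes, all periodic, rose and 8 rose with shBEX2-1, where 0.949% and 1.52% of all genes did. The periodic median was then 1.08 and the constitutive median 0.030. With the shControl arrays alone, the periodic median was 1.83 and 2 of the 8 constitutive genes rose, where 17.2% of all genes did. Normexp background correction gave a periodic median of 1.30. Leaving out single arrays gave 22 to 30 genes higher, 0 to 31 with shBEX2-1, 0 to 33 with shBEX2-2, 0 to 28 called between the control vectors, 0 to 20 between the sublines, a periodic median of 1.26 to 1.62, a constitutive median of 0.036 to 0.145 and 0 to 1 constitutive genes higher. In the comparison of all knockdown with all control arrays no setting gave a gene called lower. Where single arrays were left out, up to 29.8% of all genes were called higher with shBEX2-1 and up to 29.4% with shBEX2-2. The calls most often lost were those of CENPF (10 settings), KNTC1 (9), CENPN (7), SKA1 (6) and NUF2 (5). The sign turned, always for a gene that was not called, for MIS12 (0.14) and MAD1L1 (0.051) against shControl alone and for PMF1 (0.021) and BUB3 (-0.040) against shNontarget alone. Leaving out single arrays moved CENPT from -0.11 to 0.75, MIS12 from -0.21 to 0.063, PMF1 from -0.13 to 0.097 and NSL1 from -0.030 to 0.16. The causes were not tested. Same-numbered arrays of different vectors deviated together with correlations across genes of -0.063 to 0.259, and 5 of 6 exceeded 0.1. The file names give each replicate number a day of its own, which the labels do not state. Since 1 pair did not deviate together, the numbers were not taken as pairing. The fit with the replicate number as a block called 28 genes higher, where 6.32% of all genes were called higher. The number of arrays limits precision, and no spot was saturated.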
